A study of Homo sapiens with 8 samples.

Results

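The genes described here are 10 genes of the extrinsic apoptosis pathway, chosen by symbol: the TRAIL receptors TNFRSF10A, TNFRSF10B, TNFRSF10C and TNFRSF10D, the Fas receptor gene FAS, the TRAIL ligand gene TNFSF10, CFLAR, CASP8, and the inhibitor of apoptosis (IAP) genes BIRC2 and BIRC3. Each had a single row, 10 of the 25593 rows in the table. They were measured by RNA sequencing in 2 human acute myeloid leukaemia cell lines. HL60 is a promyelocytic line. Kasumi-1 is a myeloblast line with the fusion RUNX1-RUNX1T1. Both were cultured in RPMI-1640 with penicillin and streptomycin, either without drug or with 100 nM cinobufagin for 24 h. Cinobufagin is a bufadienolide of toad venom that blocks the sodium pump (Na+/K+-ATPase), like cardiac glycosides. The medium held 10% fetal bovine serum for HL60 and 20% for Kasumi-1, so line and serum cannot be told apart in a comparison between lines. There were 2 libraries in each of 4 groups, with numbers 1 and 2, and each disease type is represented by 1 line. Whether a group's libraries came from separate cultures is not said in the labels. The p-values therefore reflect only how far these libraries spread, which may be technical.

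Death receptors are members of the TNF receptor family whose cytoplasmic death domain recruits the adaptor FADD and procaspase-8 when the ligand binds. Caspase-8, encoded by CASP8, then cleaves the executioner caspases and BID. TNFRSF10A (DR4) and TNFRSF10B (DR5) are the signalling receptors of TRAIL, while TNFRSF10C (DcR1) lacks a cytoplasmic domain and TNFRSF10D (DcR2) has a truncated death domain, so both bind TRAIL without signalling death. CFLAR encodes c-FLIP, a relative of caspase-8 without protease activity that enters the same complex and can block it. BIRC2 and BIRC3 encode cIAP1 and cIAP2, ubiquitin ligases of the TNF receptor complex that modify RIPK1 and restrain the noncanonical NF-kB pathway. BIRC3, CFLAR and several death receptor genes are known targets of NF-kB.

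The values are FPKM (fragment counts scaled to transcript length and to the library's mapped total). They are relative to the library, so a rise or fall is not an absolute change in mRNA. Summed FPKM lay between 594942 (treated HL60 replicate 1) and 1445579 (untreated HL60 replicate 2), against 732705 in untreated HL60 replicate 1. Comparisons between libraries therefore also depend on the scaling. Group means are given as FPKM ± SD over 2 libraries (n = 2). Where 2 libraries against 2 do not overlap, a permutation p-value can be no lower than 0.33. A lack of overlap by itself is therefore weak evidence. Changes are differences in log2(FPKM + 1) from a limma model of all 8 libraries, with the standard error (SE) and a p-value adjusted by Benjamini-Hochberg over 12511 tested genes. Genes with an adjusted p under 0.05 are called changed. The scale understates the change of low genes. Between 10623 and 11371 genes per library reached 1 FPKM, and relative depth lay between 0.79 (treated Kasumi-1 replicate 1) and 1.1. Replicates of a group correlated across genes with Pearson's r of 0.995 or 0.996. Line markers matched the labels. RUNX1T1 had a value of 0 in the 4 HL60 columns and averaged 19.1 FPKM in untreated Kasumi-1, and MPO, a granule enzyme of myeloid cells, averaged 3330 and 6060 FPKM in untreated HL60 and Kasumi-1. With drug MPO averaged 260 and 7380 FPKM, and 5 of the 8 line markers fell in HL60. Of the marker genes of other cell types, 2 of 7 for T and NK cells, 2 of 5 for B cells, 1 of 8 for erythroid cells and megakaryocytes and 1 of 8 for fibroblasts and epithelium passed the filter on low values. TRAC had no row. The T and NK list summed to 25.6 and 26.8 FPKM in untreated HL60 and to 98.9 and 89.9 in treated HL60, of which NKG7 made up 25.7 and 93.0 on average. CD3D, CD3E, CD3G, CD2 and GNLY stayed at or below 1.15 FPKM in every library. The B cell list stayed at or below 4.12 FPKM in HL60 and lay between 6.71 and 15.3 in Kasumi-1. The erythroid and megakaryocyte list stayed at or below 1.35 FPKM in every library. The fibroblast and epithelial list summed to 72.7 to 78.5 FPKM in Kasumi-1, nearly all of it EPCAM, and to at most 0.512 in HL60. The part of these marker changes in the results was not tested. Fewer cells that express a gene and less of its RNA per cell cannot be told apart in these bulk samples.

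In HL60, cinobufagin was followed by higher mRNA of the TRAIL receptors, of both CFLAR and CASP8, and of BIRC3, while FAS and BIRC2 were lower. TNFRSF10B rose 7-fold to 71.3 FPKM, the highest level of the 10 genes, which placed it above 90.9% of tested genes in treated HL60. TNFRSF10C and BIRC3 rose 7.7-fold and 7.88-fold from low levels, CFLAR 4.38-fold, TNFRSF10D 4.13-fold and CASP8 3.01-fold (ratios of mean FPKM). In all, 7 of the 10 genes rose, 2 fell and TNFSF10 was not called. TNFRSF10C, counted among these rises and in the tallies below, reached 1 FPKM only in treated libraries. It thus entered the test through the groups where it is high. Of all tested genes 36% rose and 37.6% fell in HL60, 73.6% together, so a call by itself sets a gene little apart in this line. Of the 10 genes 6 changed at least 2-fold on the log2(FPKM + 1) scale, as did 26% of tested genes, and the median log2 change was 1.64 over the 10 genes and −0.012 over all.

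In Kasumi-1 the same dose was followed by small changes. TNFRSF10B, TNFRSF10C and CFLAR rose, TNFSF10 fell, and 6 of the 10 genes were not called. Of all tested genes 10.1% rose and 16.2% fell, 26.3% together, and 0 of the 10 genes and 0.575% of all tested genes changed at least 2-fold. The median log2 change was 0.13 over the 10 genes and −0.036 over all.

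**Figure D1:**
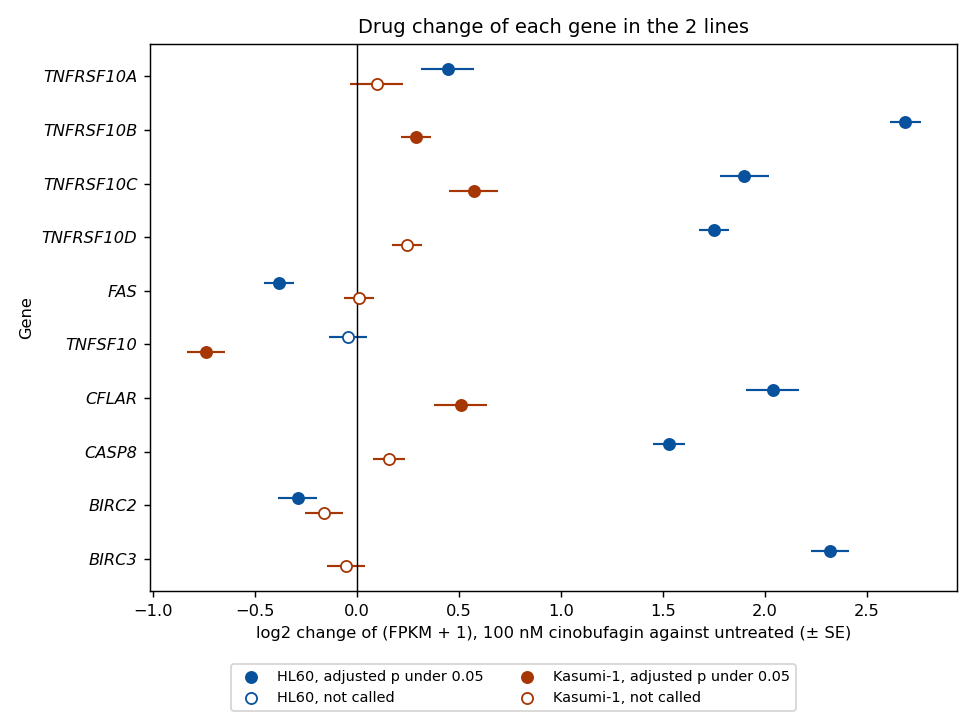
Difference in log2(FPKM + 1) between 100 nM cinobufagin and no drug for each of the 10 genes, in HL60 (blue) and Kasumi-1 (brown). Points are limma estimates with bars of 1 SE, filled where the adjusted p is under 0.05. The 6 HL60 values beyond 1.5 belong to TNFRSF10B, TNFRSF10C, TNFRSF10D, CFLAR, CASP8 and BIRC3, and all Kasumi-1 values lie between −0.74 and 0.57.

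The receptor TNFRSF10B stood at 10.2 FPKM in both untreated HL60 libraries and at 76.1 and 66.6 in the treated ones. Its log2 change of 2.69 (SE 0.075, limma adjusted p = 6.08e-07) ranked 170 among the rises of 12511 genes. In Kasumi-1 it went from 5.93 and 5.65 FPKM to 7.52 and 7.07. The groups did not overlap, but the change was only 0.29 (SE 0.075, adjusted p = 0.0349). That call depended on the libraries used. It ended without untreated Kasumi-1 replicate 1 (adjusted p = 0.0876) or replicate 2 (0.135), without treated Kasumi-1 replicate 1 (0.137) or replicate 2 (0.0731), and without untreated HL60 replicate 1 (0.0623) or replicate 2 (0.0622). It also ended with Kasumi-1 fitted alone (0.098) and with no filter on low values (0.0862). The drug changes of the lines differed by −2.40 (Kasumi-1 minus HL60, SE 0.11, adjusted p = 1.08e-05). Before treatment the gene was 1.76-fold higher in HL60 than in Kasumi-1, and with drug 9.78-fold higher.

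TNFRSF10A, the other signalling receptor, moved less. It stood at 8.21 and 7.28 FPKM in untreated HL60 and at 11 and 10.7 in treated HL60, a rise of 0.45 (SE 0.13, adjusted p = 0.0189). The groups did not overlap. The call ended without untreated HL60 replicate 2 (adjusted p = 0.0972), treated HL60 replicate 1 (0.081) or replicate 2 (0.0656), and with no filter (0.073). In Kasumi-1 its values overlapped, with 5.16 and 4.80 FPKM untreated and 4.59 and 6.31 treated (0.096, SE 0.13, adjusted p = 0.637). The change was −0.14 between the libraries numbered 1 and 0.33 between those numbered 2. The difference between lines was not called (−0.35, SE 0.18, adjusted p = 0.142), except without treated Kasumi-1 replicate 2 (−0.54, adjusted p = 0.0133).

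Both decoy receptor genes rose in HL60. TNFRSF10D went from 3.23 and 2.92 FPKM to 13.3 and 12.1, a change of 1.75 (SE 0.073, adjusted p = 2.5e-06). TNFRSF10C, the least abundant TRAIL receptor mRNA in all 4 groups, went from 0.585 and 0.801 FPKM to 5.71 and 4.97, a change of 1.90 (SE 0.12, adjusted p = 1.39e-05). It reached 1 FPKM in 3 libraries, all of them treated, so it entered the test through the treated groups. In Kasumi-1 TNFRSF10C also rose, from 0.538 and 0.327 FPKM to 1.27 and 0.992 (0.57, SE 0.12, adjusted p = 0.0177). With a pseudocount of 0.1 that change was 1.23 (adjusted p = 0.0187). The call ended without untreated Kasumi-1 replicate 2 (adjusted p = 0.0828), treated Kasumi-1 replicate 1 (0.0817), with Kasumi-1 fitted alone (0.0609) and with no filter (0.0704). TNFRSF10D stood at 5.52 and 5.38 FPKM in untreated and at 6.75 and 6.55 in treated Kasumi-1. Those groups did not overlap, yet the change just missed the threshold (0.25, SE 0.073, adjusted p = 0.0522), and it passed under 5 of the 17 alternative settings tried (adjusted p between 0.021 and 0.171 over all of them). The lines differed in the drug change of TNFRSF10D by −1.51 (SE 0.10, adjusted p = 4.98e-05) and of TNFRSF10C by −1.33 (SE 0.17, adjusted p = 0.000681).

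The make-up of the TRAIL receptor mRNA pool is given by library, as values with no test. The 4 receptor genes summed to 22.3 and 21.2 FPKM in untreated HL60, of which TNFRSF10B made up 46.0% and 48.0% and TNFRSF10A 36.9% and 34.4%. In treated HL60 the sum was 106 and 94.4 FPKM, with 71.7% and 70.5% from TNFRSF10B and 10.4% and 11.4% from TNFRSF10A. The ratio of the signalling receptors to the decoys was 4.76 ± 0.10 without and 4.55 ± 0.036 with drug. No test was run on this or the other ratios between genes. In Kasumi-1 this ratio was lower in every library, 1.83 ± 0.00073 without and 1.64 ± 0.18 with drug, and TNFRSF10D alone made up 31.3% to 33.5% of the pool. The sum there was 17.2 and 16.2 FPKM without and 20.1 and 20.9 with drug.

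**Figure D2:**
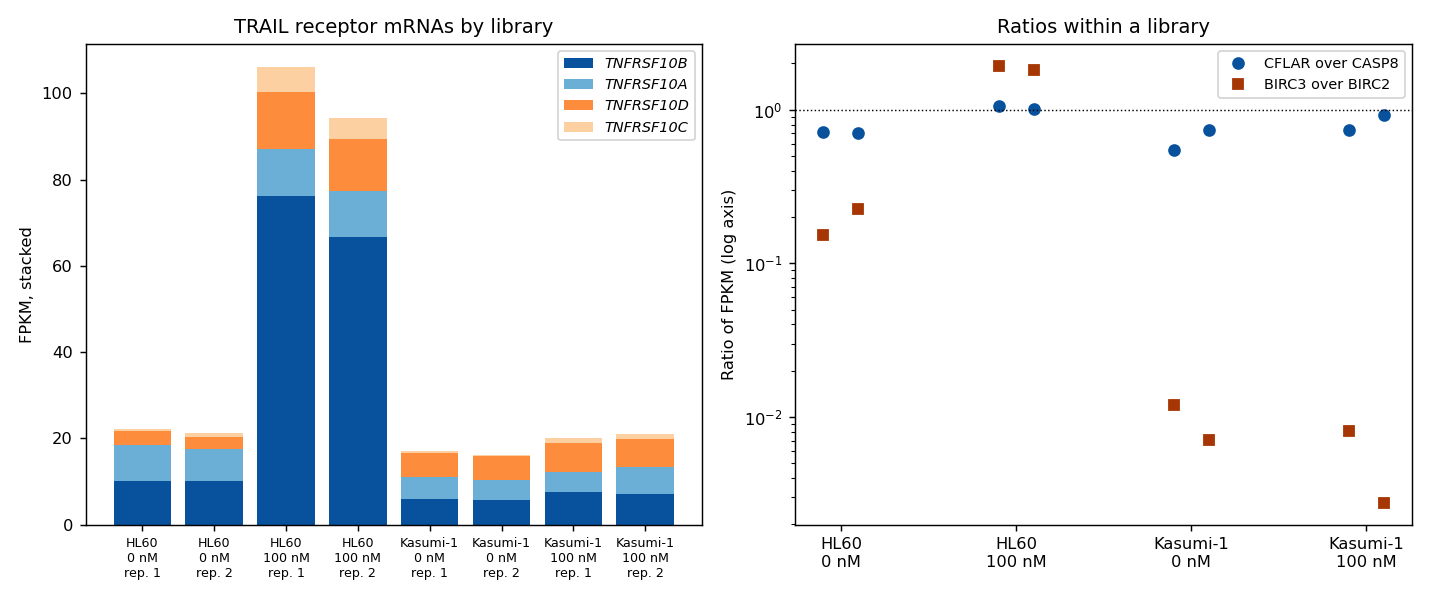
Left, FPKM of the TRAIL receptor genes stacked by library, from TNFRSF10B at the bottom to TNFRSF10C at the top. The treated HL60 bars reach 106 and 94.4 FPKM, against 16.2 to 22.3 in the other libraries. Right, ratios of FPKM within each library (log axis, 1 point per library, dotted line at 1) of CFLAR to CASP8 (circles) and of BIRC3 to BIRC2 (squares). In treated HL60 both ratios are above 1, and in all other libraries both are below 1.

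The TRAIL receptor genes lie next to each other on chromosome 8, in the order TNFRSF10B, TNFRSF10C, TNFRSF10D and TNFRSF10A by RefSeq positions. They share 0% of their 50-base stretches with each other in GENCODE v29 transcripts, so reads of that length would not be split among them. TNFRSF10C does share 39.7% of its stretches on the same strand with unnamed annotated genes, and TNFRSF10A shares 12.7% on the opposite strand, partly with its antisense gene TNFRSF10A-AS1. Neither the gene annotation nor the strand setting is given in the sources used here, so the values of TNFRSF10A and TNFRSF10C are less certain.

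The Fas receptor gene went the other way. FAS stood at 2.56 and 2.85 FPKM in untreated HL60 and at 1.93 and 1.75 with drug, without overlap, a fall of 0.38 on the log2 scale (SE 0.074, adjusted p = 0.00304). With quantile normalization the change was −0.20 (adjusted p = 0.0316), and with a pseudocount of 0.1 the call ended (−0.53, adjusted p = 0.0675). In Kasumi-1 FAS lay between 0.0326 and 0.0979 FPKM in all 4 libraries, and its groups overlapped (adjusted p = 0.955). Untreated HL60 exceeded untreated Kasumi-1 46.3-fold in mean FPKM. On the log2(FPKM + 1) scale the difference was −1.81 (SE 0.074, adjusted p = 1.93e-06), and −4.15 with a pseudocount of 0.1. FAS reached 1 FPKM only in HL60, so it entered the test through the line where it is high. The drug changes of the lines differed by 0.39 (SE 0.10, adjusted p = 0.0161), a call that ended with a pseudocount of 0.1 (adjusted p = 0.161), with quantile normalization (0.0951) and without untreated HL60 replicate 2 (0.0503).

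TNFSF10, the TRAIL ligand gene, changed in the other line. In HL60 it stood at 4.74 and 4.20 FPKM without and at 4.09 and 4.51 with drug, and the groups overlapped (−0.044, SE 0.094, adjusted p = 0.703). The sign of this small value turned with median ratio rescaling and with quantile normalization. In Kasumi-1 it went from 3.0 and 2.59 to 1.18 and 1.36 FPKM, 2.2-fold lower in mean FPKM, without overlap. The change of −0.74 (SE 0.094, adjusted p = 0.00389) ranked 174 among the falls of 12511 genes. It was called in every alternative in which the gene was tested (16, adjusted p between 0.00181 and 0.0391). The difference between lines was −0.70 (SE 0.13, adjusted p = 0.00404). Before treatment TNFSF10 was 1.6-fold higher in HL60 than in Kasumi-1, and with drug 3.39-fold higher.

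**Figure D3:**
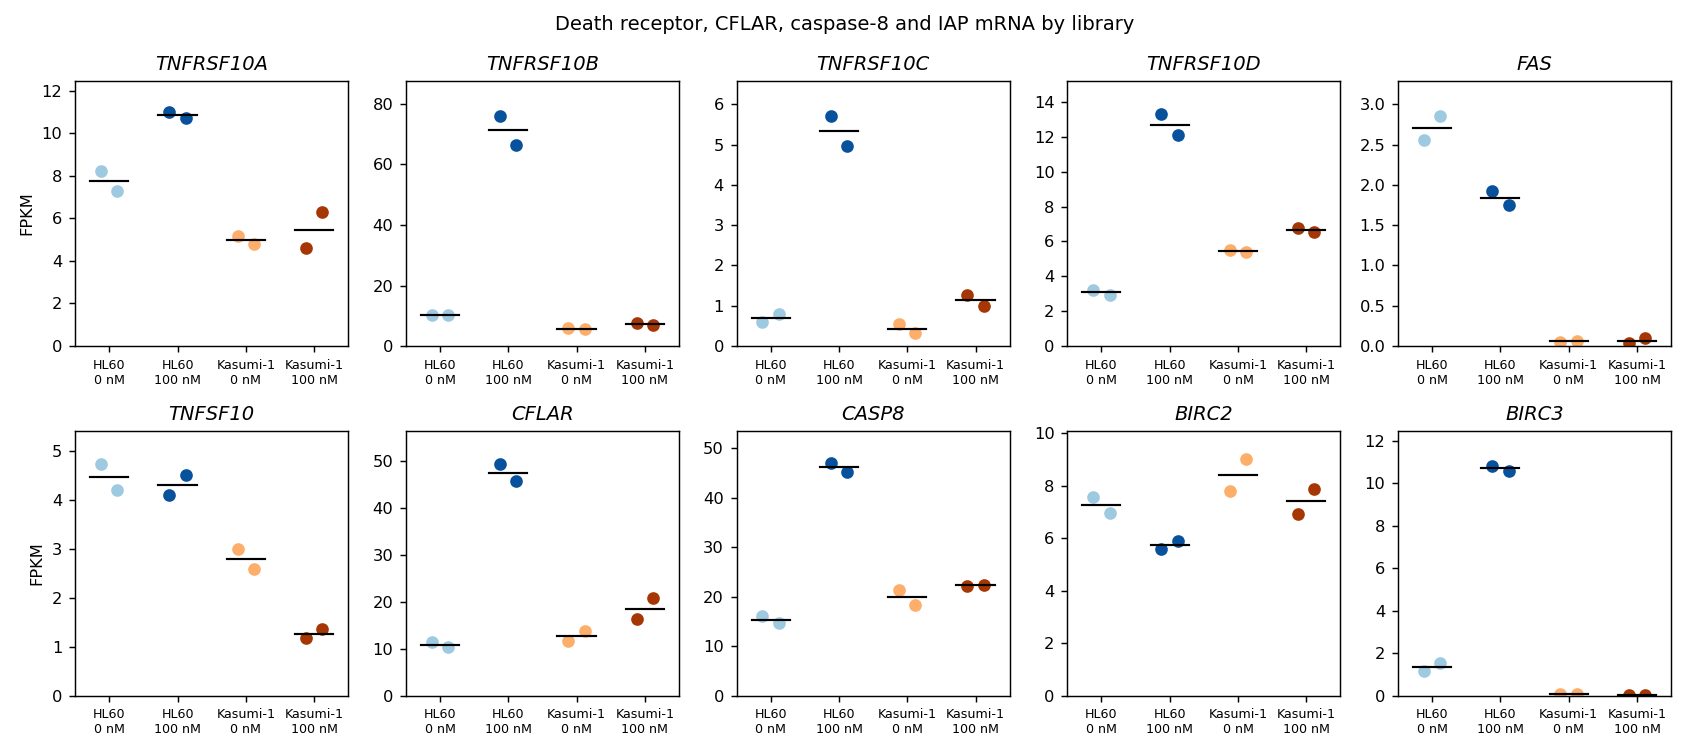
FPKM of each gene in the 8 libraries (linear axes from 0, 1 point per library, line at the mean of 2). Treated HL60 is highest for 7 of the genes, while FAS and TNFSF10 are highest in untreated HL60 and BIRC2 in untreated Kasumi-1. FAS and BIRC3 lie near 0 in Kasumi-1.

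At the level of the receptor complex, CFLAR and CASP8 rose together in HL60. CASP8 was the most abundant of the 10 genes in untreated HL60 and in both Kasumi-1 groups. It stood at 16 and 14.7 FPKM in untreated HL60 and at 47.0 and 45.2 with drug (1.53, SE 0.078, adjusted p = 5.64e-06). CFLAR stood at 11.4 and 10.3 FPKM and at 49.3 and 45.6 with drug (2.04, SE 0.13, adjusted p = 1.4e-05). Neither gene's groups overlapped. The ratio of CFLAR to CASP8 was 0.713 and 0.700 in the untreated libraries and 1.05 and 1.01 in the treated ones, so the inhibitor's mRNA was below that of the caspase without drug and slightly above it with drug. These are gene totals, and the long and short forms of c-FLIP, which act differently, cannot be told apart in them.

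In Kasumi-1 CASP8 was not called, with 21.3 and 18.4 FPKM without and 22.1 and 22.4 with drug (0.16, SE 0.078, adjusted p = 0.187). Its groups did not overlap. CFLAR rose from 11.6 and 13.7 FPKM to 16.3 and 20.7 (0.51, SE 0.13, adjusted p = 0.0314), without overlap but with a wide spread in the treated group. The CFLAR call ended without untreated Kasumi-1 replicate 1 (adjusted p = 0.135) or replicate 2 (0.0539), treated Kasumi-1 replicate 2 (0.109), and treated HL60 replicate 1 (0.0566) or replicate 2 (0.0567). It also ended with Kasumi-1 fitted alone (0.118) and with no filter (0.117). The CFLAR to CASP8 ratios overlapped between the Kasumi-1 groups, at 0.544 and 0.742 without and 0.737 and 0.925 with drug. The lines differed in the drug change of CFLAR by −1.53 (SE 0.18, adjusted p = 0.000507) and of CASP8 by −1.37 (SE 0.11, adjusted p = 9.72e-05). CFLAR shares 10.2% of its 50-base stretches on the opposite strand with other genes, including the pseudogene IMPDH1P10, and 4.15% on the same strand.

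The IAP genes BIRC2 and BIRC3, which neighbour each other on chromosome 11, moved apart in HL60. BIRC3 stood at 1.15 and 1.56 FPKM in untreated HL60 and at 10.8 and 10.6 with drug (2.32, SE 0.093, adjusted p = 2.18e-06). BIRC2 stood at 7.57 and 6.95 FPKM and at 5.6 and 5.9 with drug, a fall of 0.29 (SE 0.094, adjusted p = 0.0279). Neither gene's groups overlapped. The ratio of BIRC3 to BIRC2 went from 0.153 and 0.225 to 1.93 and 1.80, so cIAP2 mRNA passed cIAP1 mRNA. The BIRC2 call ended without untreated HL60 replicate 1 (adjusted p = 0.135), treated HL60 replicate 1 (0.119) or replicate 2 (0.0678), with no filter (0.0749) and with quantile normalization (0.0512). The 2 genes share at most 0.245% of their 50-base stretches.

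In Kasumi-1 BIRC3 lay between 0.0218 and 0.0939 FPKM in all 4 libraries (−0.054, SE 0.093, adjusted p = 0.714), and like FAS it entered the test through HL60 alone. Its Kasumi-1 groups did not overlap, but all of these values are very low. BIRC2 stood at 7.80 and 9.01 FPKM without and 6.93 and 7.89 with drug, and its groups overlapped (−0.16, SE 0.094, adjusted p = 0.257). The lines differed in the drug change of BIRC3 by −2.37 (SE 0.13, adjusted p = 2.31e-05) and not detectably in that of BIRC2 (0.13, SE 0.13, adjusted p = 0.427). Mean BIRC3 was 17.2-fold higher in HL60 than in Kasumi-1 without drug and 274-fold higher with drug, where the Kasumi-1 mean was 0.0391 FPKM and the ratio is therefore imprecise.

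The promoter letters of BIRC3, its neighbour BIRC2 and CFLAR are shown because 2 of these genes rose and BIRC2 fell in HL60, and 2 of the 3 sequences carry a match to the kappa-B consensus, the sequence bound by NF-kB dimers. The letters are the 250 bases before an annotated start, from RefSeq on GRCh38.p14, plus strand, in lower case with kappa-B matches in capitals.
BIRC3: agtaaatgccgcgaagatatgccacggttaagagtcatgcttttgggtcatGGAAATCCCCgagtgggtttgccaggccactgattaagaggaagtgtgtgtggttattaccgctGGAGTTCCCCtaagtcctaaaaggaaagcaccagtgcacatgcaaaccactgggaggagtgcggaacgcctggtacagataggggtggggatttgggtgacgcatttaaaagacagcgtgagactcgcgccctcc
BIRC2: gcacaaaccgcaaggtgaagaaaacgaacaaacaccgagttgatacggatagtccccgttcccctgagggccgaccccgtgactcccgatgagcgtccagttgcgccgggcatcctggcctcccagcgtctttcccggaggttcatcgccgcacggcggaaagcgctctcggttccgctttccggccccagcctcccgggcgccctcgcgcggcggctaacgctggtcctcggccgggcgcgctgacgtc
CFLAR: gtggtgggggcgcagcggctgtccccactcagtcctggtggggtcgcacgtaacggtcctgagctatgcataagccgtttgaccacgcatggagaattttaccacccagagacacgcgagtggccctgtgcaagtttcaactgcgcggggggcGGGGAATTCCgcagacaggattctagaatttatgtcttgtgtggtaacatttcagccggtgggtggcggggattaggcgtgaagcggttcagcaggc
The BIRC3 letters are chr11:102317234-102317483, the BIRC2 letters chr11:102346964-102347213 and the CFLAR letters chr2:201118466-201118715, the first of 4 annotated CFLAR starts. BIRC3 carries GGGGATTTCC 199 to 190 bases and GGGGAACTCC 135 to 126 bases before the start, both on the minus strand, so they appear above as their reverse complements. CFLAR carries GGGGAATTCC 97 to 88 bases before this start, on the plus strand.

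Promoter windows of 300 bases (250 before to 50 after a start) matched 6 of the 10 genes by symbol, 14 windows in all, some of which overlap. TNFRSF10A, TNFRSF10B, TNFRSF10C and TNFRSF10D had no match. A kappa-B match on either strand was present in 3 of the 14 windows, 1 each of BIRC3, CFLAR and FAS, and in 11.3% of all 35116 windows of that length. FAS, which fell in HL60, thus holds a match as well, while CASP8, which rose there, holds 0 in its 3 windows. Of the 4 CFLAR windows only the one printed above holds a match. TGANTCA, a loose form of the AP-1 motif with any base in the middle, was searched on both strands. It was present in 4 of the 14 windows, 2 of CASP8 and 1 each of CFLAR and FAS, and in 7.71% of all windows. On the plus strand the CASP8 matches read TGAGTCA and TGACTCA, while those of CFLAR and FAS read TGAATCA. The letters TGANTCA read the same on both strands, so each such match counts once, and the FAS kappa-B match is present on both strands at the same bases. No match of one motif overlapped one of the other. A match describes letters only, and says nothing about binding in these cells.

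A list of transcription factors known to act on some of the 10 genes held 12 genes, all tested. Of these, 9 rose and 1 fell in HL60, and 3 rose and 2 fell in Kasumi-1. All tested genes gave 36% rises and 37.6% falls in HL60, and 10.1% and 16.2% in Kasumi-1. With both directions pooled, the count in HL60 was not far from the background of 73.6%, but rises made up most of it. The pooled background in Kasumi-1 was 26.3%. The list was not tested as a set. NFKB2 and RELB, of the noncanonical NF-kB pathway, went from 3.17 ± 0.095 to 51.5 ± 0.69 FPKM and from 2.34 ± 0.0081 to 40.1 ± 1.7 in HL60 (changes of 3.65 and 3.62, adjusted p = 1.4e-07 for both). In Kasumi-1 they rose by 0.39 and 0.41 (adjusted p = 0.00713 and 0.00593). NFKB1 rose by 1.12 and RELA by 0.48 in HL60, while in Kasumi-1 their changes were 0.10 (adjusted p = 0.139) and 0.16 (0.0507). REL rose in both lines, by 0.63 and 0.48. SP1 and IRF1 rose in HL60 by 0.94 and 0.36, and were not called in Kasumi-1 (0.099 and 0.18). DDIT3, which encodes CHOP, an ER stress factor known to induce TNFRSF10B, rose from 26.1 ± 2.6 to 42.7 ± 5.0 FPKM in HL60 (0.69, adjusted p = 0.015) and was not called in Kasumi-1 (0.53, adjusted p = 0.0873). FOXO3 was not called in either line (0.18 and −0.074), and MYC fell in both (−4.64 and −0.62).

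Most of the other tested death receptors, decoys and ligands also rose in HL60. Of 18 genes with a row, 9 were tested, and of these 8 rose and 1 fell in HL60 (median 1.87), against 3 rises and 1 fall in Kasumi-1 (median 0.025). Of all tested genes 36% rose and 37.6% fell in HL60, and 10.1% and 16.2% in Kasumi-1. LTA, counted among the HL60 rises and in the median, reached 1 FPKM only in treated HL60 (0.0946 and 0.184 untreated, 1.4 and 1.88 treated), so it entered the test through the group where it is high. LTA, LTB and TNFSF14 stayed at or below 0.221 FPKM in Kasumi-1 and entered through HL60. The Kasumi-1 median is the value of LTB, so it rests partly on genes hardly detected there. TNFRSF21, the gene that fell in HL60, lay between 0.255 and 0.839 FPKM there and entered through Kasumi-1. TNF, the founding ligand of the family, went from 6.85 ± 0.19 to 173 ± 5.0 FPKM in HL60 (4.47, SE 0.16, adjusted p = 1.37e-06) and in Kasumi-1 from 1.15 and 0.647 to 0.194 and 0.546 (−0.47, adjusted p = 0.0759). TNFRSF12A, the receptor of TWEAK, rose in HL60 from 3.80 ± 0.36 to 33.9 ± 0.04 FPKM and TNFSF14, the ligand LIGHT, from 1.31 ± 0.084 to 14.4 ± 1.4. TNFRSF1A, the main TNF receptor and the most abundant gene of the list without drug, rose by 0.87 in HL60 and by 0.27 in Kasumi-1 (adjusted p = 9.4e-06 and 0.0121). FASLG, the ligand of FAS, was among the 9 genes that did not pass the filter, which stayed at or below 1.02 FPKM.

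Of the adaptors, caspases and their modulators, changes in HL60 were smaller than that of CASP8. Of 18 tested genes 10 rose and 3 fell in HL60 (median 0.35), and 0 rose and 5 fell in Kasumi-1 (median −0.11). Over all tested genes 73.6% were called in HL60 and 26.3% in Kasumi-1, so the pooled number of calls in this list was near the background. By direction, 36% of all tested genes rose and 37.6% fell in HL60, and 10.1% and 16.2% in Kasumi-1. Most calls in this list were rises in HL60, and all were falls in Kasumi-1. FADD, the adaptor that joins death receptors to CASP8, was not called in either line (0.16 and −0.11, adjusted p = 0.107 and 0.364). CASP10, the paralog of CASP8 that lies between CFLAR and CASP8 on chromosome 2, went from 3.22 and 4.15 to 4.90 and 4.85 FPKM in HL60 (0.33, adjusted p = 0.0248). The largest rises in HL60 were PEA15 at 0.79, which can bind FADD, APAF1 at 0.76, the apoptosome scaffold, and DEDD2 at 0.72. CASP6, an executioner caspase, fell from 9.82 ± 0.28 to 3.88 ± 0.46 FPKM, TRADD, the adaptor of TNFRSF1A, fell by 0.80 and DAXX by 0.50. In Kasumi-1 FAIM, an inhibitor of Fas-induced apoptosis, changed by −0.995, CASP6 fell by 0.40 and PEA15 by 0.32. FAIM was listed at 0 in HL60, so it entered the test through Kasumi-1 but counts in the HL60 tally and median.

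Of the other IAPs and their antagonists, 6 were tested, and 4 rose and 1 fell in HL60 (median 0.65), against 0 and 1 in Kasumi-1 (median 0.066). With so few genes these counts, both directions pooled, are near the 73.6% and 26.3% called over all tested genes. Most of the HL60 calls were rises, where 36% of all tested genes rose and 37.6% fell. BIRC5, which encodes survivin, rose from 33.2 ± 1.5 to 83.8 ± 3.3 FPKM in HL60, BIRC6 by 0.89 and XIAP, a direct caspase inhibitor, by 0.86 (adjusted p = 0.00807). DIABLO, which encodes the IAP antagonist SMAC, rose by 0.43 in HL60 and fell by 0.20 in Kasumi-1, and HTRA2 fell by 0.37 in HL60.

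In the TNF receptor complex, 17 of 24 tested TRAF, ubiquitin and kinase genes rose and 4 fell in HL60 (median 0.45), against 3 and 1 in Kasumi-1 (median 0.0034), where the shares over all tested genes were 36% and 37.6% in HL60 and 10.1% and 16.2% in Kasumi-1. TRAF1, counted among the HL60 rises, reached 1 FPKM only in treated HL60 (0.35 and 0.486 untreated, 1.41 and 1.42 treated), so it too entered through the group where it is high. TNFAIP3, the ubiquitin-editing enzyme A20 and a feedback inhibitor of NF-kB, went from 4.33 ± 0.035 to 33.3 ± 0.87 FPKM in HL60 (2.68, adjusted p = 5.33e-07). CYLD, a deubiquitinase of RIPK1, went from 3.71 ± 0.11 to 20.7 ± 0.27 and TANK from 13.7 ± 1.3 to 49.6 ± 3.0. TRAF3 and TRAF2, which hold the cIAPs at the kinase NIK, rose by 1.07 and 0.21, and MAP3K14, which encodes NIK, rose by 0.95. RBCK1, a subunit of the linear ubiquitin ligase, fell by 1.2, TAB1 by 0.94 and USP21 by 0.54. In Kasumi-1 TNFAIP3, CYLD and TANK rose by 0.39, 0.38 and 0.36, and RBCK1 fell by 0.35. Of 5 tested necroptosis genes 3 rose and 1 fell in HL60 and 0 rose and 1 fell in Kasumi-1 (medians 0.57 and 0.032). With both directions pooled, these counts were also near the 73.6% and 26.3% called over all tested genes. Most of the HL60 calls were rises here too. MLKL, the necroptosis effector, rose from 7.88 ± 0.30 to 21.6 ± 1.3 FPKM in HL60, and stood at 23.6 ± 0.043 in untreated Kasumi-1. TICAM1 and PPM1B rose by 0.87 and 0.57 in HL60, and PGAM5 fell by 0.88 there and by 0.37 in Kasumi-1. RIPK3, the kinase upstream of MLKL, was not called in either line (−0.16 and 0.032).

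**Figure D4:**
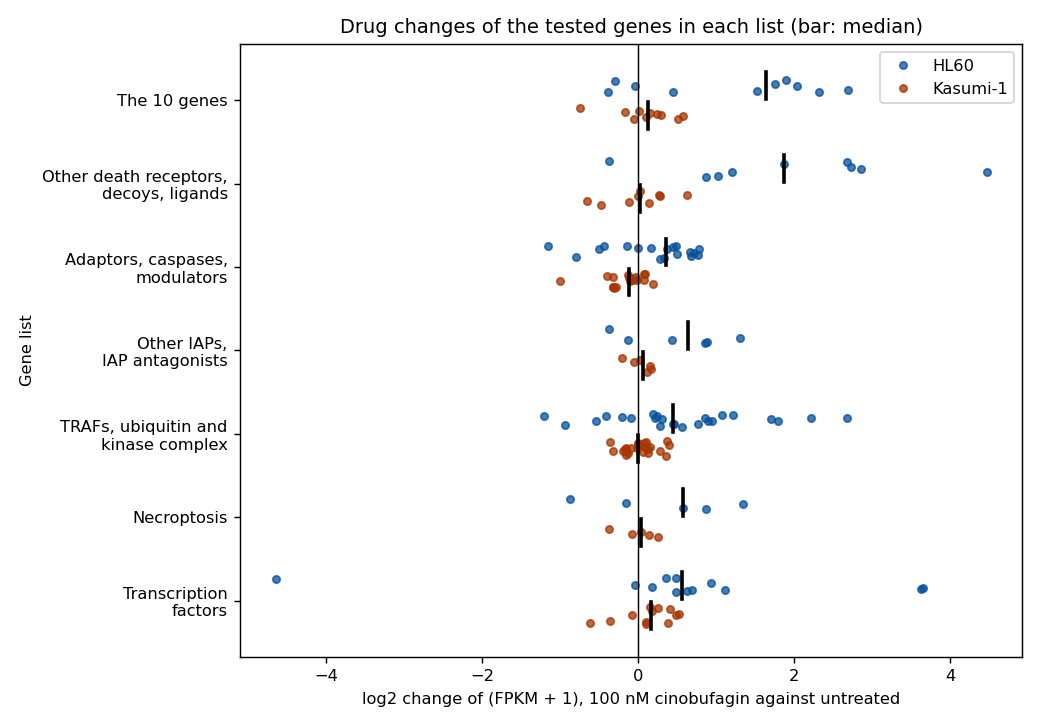
Difference in log2(FPKM + 1) between 100 nM cinobufagin and no drug for the tested genes of each list (1 point per gene, vertical position jittered within a list, black bar at the median), in HL60 (blue) and Kasumi-1 (brown). The HL60 medians are 1.64 for the 10 genes and 1.87 for the other death receptors, decoys and ligands, and between 0.35 and 0.65 for the other lists.

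The levels without drug differed between lines for 7 of the 10 genes, 2 higher and 5 lower in Kasumi-1. Of all tested genes 69.7% differed, 35.9% higher and 33.8% lower. At least 2-fold differences were called for 2 of the 10 genes and 24% of all. The 2 genes were FAS and BIRC3, which reached 1 FPKM only in HL60. Both thus entered the test through the line where they are high, and both also count in the tallies with drug. TNFRSF10D and CASP8 were higher in Kasumi-1 (0.66 and 0.35, adjusted p = 0.000214 and 0.00645). TNFRSF10A, TNFRSF10B, FAS, TNFSF10 and BIRC3 were lower, with TNFRSF10B at −0.72 (adjusted p = 0.000164) and TNFSF10 at −0.53 (0.00233). The TNFRSF10A difference of −0.55 (adjusted p = 0.00869) lost its call without untreated HL60 replicate 1 (0.0525). CFLAR, BIRC2 and TNFRSF10C were not called (0.20, 0.19 and −0.24), although TNFRSF10C passed after quantile normalization (−0.53, adjusted p = 0.00704). With drug all 10 differed, 9 lower and BIRC2 higher in Kasumi-1, against 82.2% of all tested genes, 42% higher and 40.2% lower. At least 2-fold differences were called for 7 of the 10 genes and 39.1% of all. BIRC2 was called at less than 2-fold (0.32, SE 0.094, limma adjusted p = 0.0179). BIRC2 lost that call without treated HL60 replicate 1 (adjusted p = 0.0851) or treated Kasumi-1 replicate 2 (0.0964). On this scale the differences of BIRC3 were −1.12 without and −3.49 with drug, and −3.02 and −6.29 with a pseudocount of 0.1, and that of FAS with drug was −1.42, or −3.58 with that pseudocount. The drug changes of 8 of the 10 genes differed between lines, against 63.1% of tested genes, with 7 lower and FAS higher in Kasumi-1 relative to HL60 (33.1% and 30.1% of all). For 6 of the 10 genes, and 21.4% of all, the changes differed at least 2-fold. The 5 comparisons share groups, so their counts are not independent.

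Genes whose 8 values most resembled those of TNFRSF10B and BIRC3, the 2 genes with the largest HL60 changes on the log2(FPKM + 1) scale, were found by Euclidean distance between centred log2(FPKM + 1) values over the 8 libraries, among 9125 tested genes with a mean of at least 5 FPKM in their highest group. For TNFRSF10B these were SQSTM1, an autophagy receptor (distance 0.209, against a median of 3.94), SMOX, spermine oxidase (0.337), and MEGF9 (0.376). SQSTM1 averaged 56.0 and 365 FPKM in HL60 without and with drug and 31.3 and 42.1 in Kasumi-1. For BIRC3 they were CKAP4, a membrane protein of the ER (0.243, against a median of 4.08), MPZL3 (0.343) and EMR2, an adhesion receptor of myeloid cells (0.369). CKAP4 averaged 1.52 and 11.3 FPKM in HL60 and 0.0854 and 0.10 in Kasumi-1. By ratio of mean FPKM the order of the HL60 changes was BIRC3, TNFRSF10C and TNFRSF10B, and with a pseudocount of 0.1 their log2 changes were 2.90, 2.79 and 2.79. The named genes were picked as the nearest of 9125, so distances under the median follow from that choice. The likeness describes these 8 libraries only.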

How the data were processed

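The deposited table gives the authors' FPKM for 25593 genes in 8 columns, 1 a library. It was made with Cufflinks 2.2.1, HISAT2 2.1.0 and bcl2fastq 2.20.0 on hg19, per the submitters' processing notes, which give no order. Per the labels' protocols, RNA came from an RNeasy kit and libraries from a TruSeq Stranded mRNA kit. Annotation, strand setting, filters and library read totals: none is given in the sources used here. The depth is unknown, and no counting interval could be set. All 8 columns were used and 0 left out. From the FPKM, log2(FPKM + 1) was fitted with limma 3.58.1 in R 4.3.3 (1 mean per group, 8 libraries, 4 residual degrees of freedom, intensity trend). Genes with at least 1 FPKM in at least 2 libraries were tested, 12511 in all, and p-values were adjusted by Benjamini-Hochberg within each of 5 contrasts. Relative depth is the inverse of the most frequent ratio, to untreated HL60 replicate 1, among genes under 0.3 FPKM in every library. The fit was first tested on simulated data. The genes, lists and rules were chosen with earlier results of these data known. All 10 genes are named in every contrast, and of the other lists up to 3 called genes per direction and line, by size of change, with at least 5 FPKM in the higher group. The tested transcription factors are named except 2, which count in the list but are not reported here. FADD, CASP10, TRAF2, TRAF3, MAP3K14, RIPK3, FASLG, the HL60 changes of TNFRSF1A and DIABLO and the Kasumi-1 changes of TNFAIP3 and CYLD were added after their values were seen. Alternatives were a pseudocount of 0.1, no filter, a filter at 5 FPKM, median ratio rescaling, quantile normalization, no trend, no short RNAs or repeated symbols, a replicate block, each line alone, and leaving out each library.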

Additional observations from a re-analysis of the deposited data

Results flagged for a closer look

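The drug change of 8 of the 10 genes differed between the lines by limma's interaction term (Kasumi-1 minus HL60, Benjamini-Hochberg over 12511 genes), as it did for 63.1% of all tested genes. The rises in HL60 were larger than in Kasumi-1 for TNFRSF10B (−2.40, adjusted p = 1.08e-05), CFLAR (−1.53, 0.000507), TNFRSF10D (−1.51, 4.98e-05), CASP8 (−1.37, 9.72e-05) and TNFRSF10C (−1.33, 0.000681), and for BIRC3, which is near 0 in Kasumi-1 (−2.37, 2.31e-05). TNFSF10 differed the same way (−0.70, 0.00404), with a fall in Kasumi-1 and no call in HL60. FAS differed in the opposite direction (0.39, 0.0161), with a fall in HL60 and values at or below 0.0979 FPKM in Kasumi-1. Line and serum cannot be told apart in these differences.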

How the results depend on the processing

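Over 17 alternatives, the HL60 rises of TNFRSF10B, TNFRSF10C, TNFRSF10D, CFLAR, CASP8 and BIRC3 and the Kasumi-1 fall of TNFSF10 kept their call wherever the gene was tested. A filter at 5 FPKM left 7 of the 10 genes, without FAS, TNFSF10 and TNFRSF10C, so 5 in place of 8 differed in drug change between lines. In Kasumi-1 the count of 4 called genes became 1 with no filter and 1 with the line fitted alone, and lay between 1 and 3 when each library was left out. Without a library the count lay between 7 and 9 for HL60, 7 and 9 for the difference of the drug changes, 6 and 7 for the untreated lines and 9 and 10 for the treated lines. Values that changed sign were not called in either form. TNFSF10 in HL60 went from −0.044 to 0.0019 with median ratio rescaling and 0.072 with quantile normalization, and when each library was left out it lay between −0.115 and 0.027, positive only on leaving out number 1 of the untreated (0.027) or of the treated (0.012) HL60 libraries. In Kasumi-1, FAS (0.0086) lay between −0.036, on leaving out treated library 2, and 0.053, with −0.0047 on leaving out untreated library 1. TNFRSF10A (0.096) lay between −0.097, on leaving out treated library 2, and 0.29. Changes within the replicate numbers had the same sign in both for all 9 called genes in HL60 and all 4 in Kasumi-1. None of these genes had overlapping groups in that line, which fixes the shared sign in advance. The shared sign therefore adds no support to the calls. The replicate differences of the groups correlated across genes with r between 0.272 and 0.434, but the labels do not say what a number marks. With the replicate number as a block, 9, 5, 8, 7 and 10 genes were called in HL60, Kasumi-1, their difference, and the untreated and treated lines, and TNFRSF10D was added in Kasumi-1 (adjusted p = 0.021). Rescaling moved the rises and falls of all genes in Kasumi-1 from 1266 and 2026 to 1669 and 1561 with median ratios and to 1675 and 1793 with quantile normalization.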

Other observations

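The protein-coding genes that flank these genes by RefSeq order, taken by position after the results above were known, did not all share their response in HL60. TMEM123, on the far side of BIRC2 from BIRC3, rose from 101 and 113 to 231 and 245 FPKM (1.15, SE 0.12, limma adjusted p = 0.000166), while BIRC2 between them fell, and YAP1, on the other side of BIRC3, was at most 0.112 FPKM. At the ends of the TRAIL receptor row, RHOBTB2 beside TNFRSF10B was not called (3.93 and 4.10 FPKM untreated, 3.46 and 3.98 treated, adjusted p = 0.372), and CHMP7 beside TNFRSF10A rose by 0.33 (SE 0.067, adjusted p = 0.0041). NDUFB3 beside CFLAR, a respiratory chain subunit gene, fell by 0.40 (SE 0.13, adjusted p = 0.0248). NCEH1 beside TNFSF10 was not called (0.16, adjusted p = 0.23), and in Kasumi-1, where TNFSF10 fell, NCEH1 was not called either (−0.20, adjusted p = 0.226). In Kasumi-1, RHOBTB2, CHMP7, NDUFB3 and TMEM123 were not called (0.13, −0.13, −0.30 and 0.040).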
